A study of Mus musculus with 6 samples.

Results

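The genes described here are *Trp53*, which encodes the transcription factor p53, and 9 genes widely known as its direct targets in the mouse, namely *Mdm2*, *Cdkn1a*, *Ccng1*, *Zmat3*, *Phlda3*, *Trp53inp1*, *Aen*, *Eda2r* and *Sesn1*. These 10 genes were chosen by name from the 56748 genes of the deposited table, and all 10 were found in it. RNA-seq compared 2 groups of murine CD4 cells, with 3 scrambled ASO libraries and 3 libraries labelled *Pgam* ASO. An ASO is a short synthetic strand that binds a matching RNA, and the *Pgam* ASOs were designed against phosphoglycerate mutase, a glycolytic enzyme, to ask what its loss does to Treg differentiation. Both groups came from wild-type C57BL/6J mice of 6 to 10 weeks. Naive CD4 cells, purified from spleen and lymph nodes by depleting other cells, were stimulated through CD3 and CD28, and kept for 3 days under Treg polarizing conditions, with IL-2, TGF-β and antibodies to IFNγ and IL-4. An ASO was present at 10 μM from the start, scrambled in one group and *Pgam* in the other, and the cells were harvested unsorted at 72 hr, so each library holds whatever cells the culture held. The replicates are described as biological, but which mouse gave each one is not stated, and the ASO sequences were not used here. Values are estimated counts per gene, with totals of 17588755, 18032805 and 16231127 in scrambled ASO replicates 1, 2 and 3 and of 16589933, 15860476 and 16803881 in those labelled *Pgam* ASO. At this depth 3 counts, taken as the smallest number worth reading, equal 0.166 to 0.189 CPM (counts scaled to a common library size) before TMM factors are applied, a limit that covers counting error only.

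p53 is held low in unstressed cells by the ubiquitin ligase MDM2, and DNA damage, nucleotide shortage or ribosomal stress release it, mostly through the stability of the protein and not through its transcript. Stabilized p53 binds paired half-sites in DNA and switches on genes that halt the cell cycle, repair DNA, restrain growth signalling or kill the cell, and it also switches on *Mdm2*, its own inhibitor. In T cells p53 restrains proliferation after antigen receptor stimulation, and several of its targets are also controlled by other factors, among them the FOXO factors of resting T cells.

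The targeted genes were read first, as a check of the labels. *Pgam1* stood at 600, 478 and 707 CPM in scrambled ASO replicates 1, 2 and 3 and at 658, 661 and 707 CPM in those labelled *Pgam* ASO. *Pgam2*, the muscle isoform, stood at 5.23, 6.75 and 2.85 CPM and at 2.98, 2.69 and 2.60 CPM. The groups overlapped for both genes. The log2 fold changes, here always *Pgam* ASO over scrambled ASO, were 0.18 for *Pgam1* (SE 0.13, adjusted p = 0.331) and -0.84 for *Pgam2* (SE 0.31, adjusted p = 0.0854) by the edgeR quasi-likelihood test, where p was adjusted over every tested gene (Benjamini-Hochberg). *Pgam2* passed an adjusted p of 0.05 only with no filter on low counts (0.0292) or without replicate 3 labelled scrambled ASO (0.0144). *Pgam1* shared 37.1% of its 31-base stretches with the pseudogene *Pgam1-ps2*, so its count is uncertain. A knockdown was thus not seen in these transcripts, and the groups are named by their labels throughout. *Foxp3*, the defining transcription factor of Tregs, stood at 282, 371 and 222 CPM in the scrambled libraries and at 89.7, 109 and 131 CPM in those labelled *Pgam* ASO (log2 fold change -1.41, SE 0.20, edgeR adjusted p = 0.00567). All 3 libraries labelled *Pgam* ASO lay below all 3 labelled scrambled ASO.

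Of the 10 genes, 9 had enough counts to be tested, and the members moved in different directions. *Aen* was higher in the libraries labelled *Pgam* ASO, *Trp53inp1* and *Sesn1* were lower, and 6 did not pass an adjusted p of 0.05, among them *Trp53* itself, *Mdm2* and *Cdkn1a*. Thus 3 of 9 were called, 33.3%, where 2565 of all 14936 tested genes, 17.2%, were called by the same test. *Aen* was the 1 gene higher, beside 8.03% of all tested genes, and 2 were lower, beside 9.15%. The groups did not overlap for 7 of the 9 genes, 5 with *Pgam* ASO above and 2 with it below, whereas 39.5% of all tested genes did not overlap, 19.6% above and 19.8% below. The median log2 fold change was 0.08 over the 9 genes and -0.0061 over all tested genes. The number called was 1, *Aen*, without replicate 1 labelled scrambled ASO or without replicate 2 labelled *Pgam* ASO, and over all tested genes it was then 620, 4.02%, and 391, 2.51%.

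**Figure D1:**
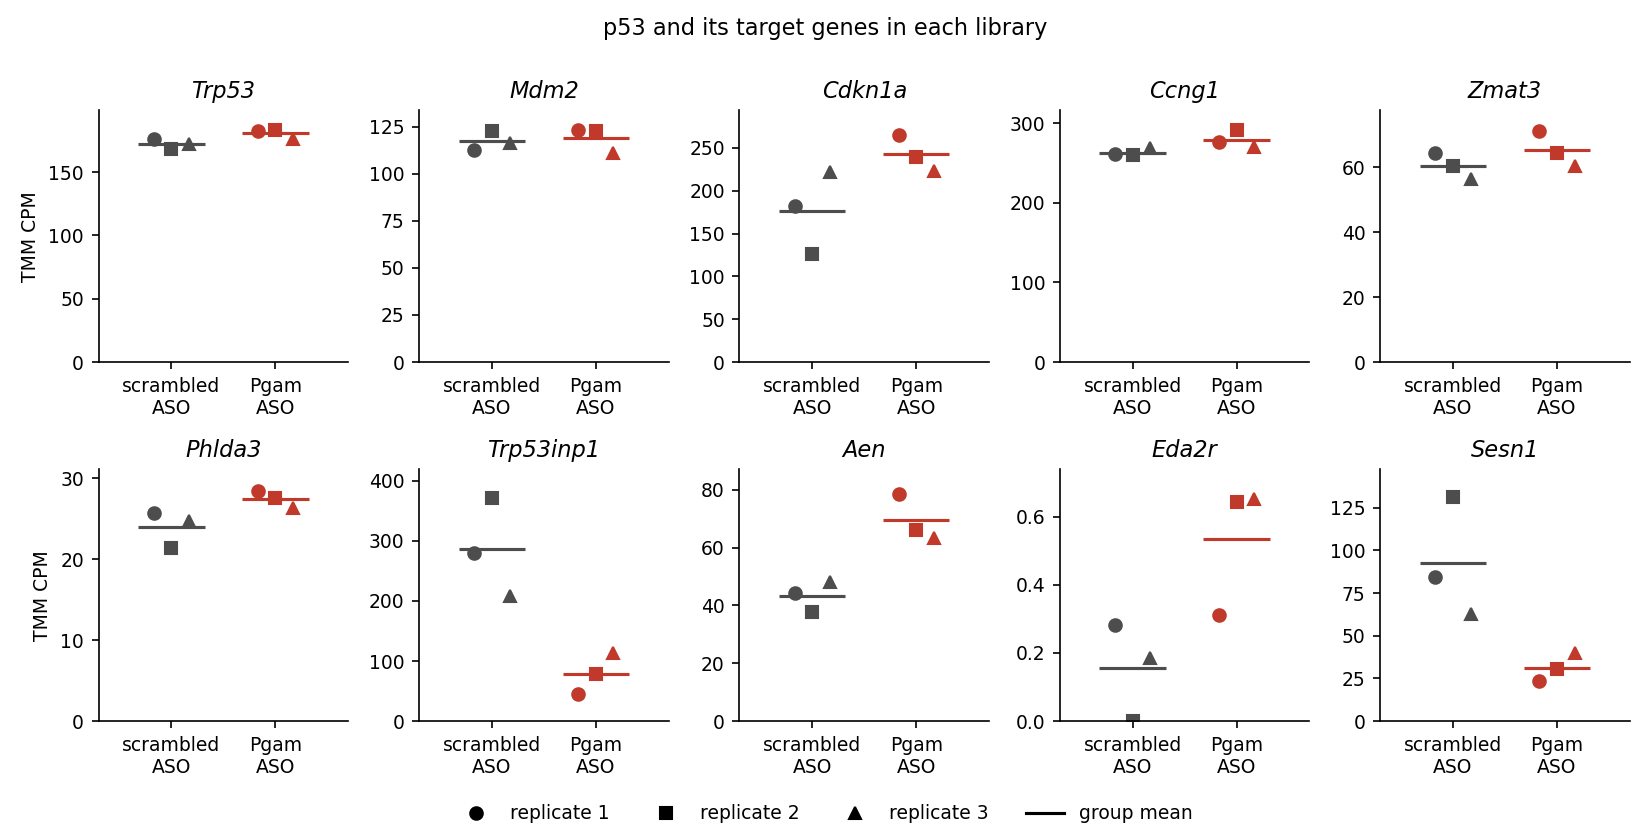
TMM-normalized CPM (linear axes from 0) of the 10 genes in each of the 6 libraries, with 1 point per library, its shape giving the replicate number, and a bar at each group mean. *Trp53inp1* falls from a mean of 286 to 79.0 CPM and *Sesn1* from 92.8 to 31.1 CPM, *Aen* rises from 43.4 to 69.4 CPM, and *Trp53* has a mean of 172 CPM in one group and 181 CPM in the other.

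*Trp53* (ENSMUSG00000059552) lies at chr11:69580359-69591873 on the plus strand in GENCODE M21 (GRCm38). It was measured at 176, 169 and 172 CPM in scrambled ASO replicates 1, 2 and 3 and at 183, 183 and 176 CPM in those labelled *Pgam* ASO. The groups did not overlap, but the lowest *Pgam* ASO library and the highest scrambled one were both at 176 CPM. The difference was 0.07 on the log2 scale (SE 0.07, edgeR adjusted p = 0.540), which did not pass. *Trp53* had 10.2% of its 31-base stretches in common with transcripts of other genes, most of them the pseudogene *Trp53-ps*, to which 1 to 12 counts per library were assigned against 2777 to 3134 for *Trp53*. *Mdm2* (ENSMUSG00000020184, chr10:117688875-117710758, minus strand), the p53 target that closes the negative feedback loop, stood at 112, 123 and 116 CPM against 123, 123 and 111 CPM. Its groups overlapped, and its log2 fold change of 0.02 (SE 0.08, edgeR adjusted p = 0.883) changed sign with scaling by library size alone, where it was -0.016.

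A p53 half-site was searched as an exact match to the consensus RRRCWWGYYY, with no mismatch allowed. There R is A or G, W is A or T and Y is C or T. The promoter windows searched were those that RefSeq gives for GRCm38.p6, from 250 bases before to 50 bases after each start. Of these, 11 windows matched 8 of the 10 members by symbol. *Zmat3* and *Trp53inp1* had none. A half-site was found in 7 of the 11 windows, belonging to 6 members, and in 8.36% of all 32817 windows. The FOXO motif GTAAACA, searched on both strands, was in 3 of the 11 windows (*Mdm2*, the first *Sesn1* window and *Eda2r*) and in 3.65% of all windows, and it overlapped no half-site in the sequences printed here. The stretches below are shown because they place members that were and were not called beside each other, with each half-site in capitals. They are given 5′ to 3′ on the strand of the gene.
Trp53: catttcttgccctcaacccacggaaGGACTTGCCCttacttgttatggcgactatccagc
Mdm2: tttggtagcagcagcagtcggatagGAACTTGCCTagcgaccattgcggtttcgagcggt
Cdkn1a: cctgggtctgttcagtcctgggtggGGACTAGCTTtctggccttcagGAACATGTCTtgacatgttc
Ccng1: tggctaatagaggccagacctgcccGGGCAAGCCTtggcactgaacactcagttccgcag
Aen: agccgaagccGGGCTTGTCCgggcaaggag
Sesn1: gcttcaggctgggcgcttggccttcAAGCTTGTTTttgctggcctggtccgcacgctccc
The stretches lie at chr11:69580259-69580318 (plus, *Trp53*), chr10:117710910-117710969 (minus, *Mdm2*), chr17:29090881-29090947 (plus, *Cdkn1a*), chr11:40755437-40755496 (minus, *Ccng1*), chr7:78895927-78895956 (plus, *Aen*) and chr10:41887241-41887300 (plus, *Sesn1*). In GENCODE the first 4 are upstream of the gene, that of *Aen* is in an exon, and that of *Sesn1* is in an intron, before the second of its 2 RefSeq starts. *Cdkn1a* alone among these windows held a pair of exact matches, 12 bases apart. Of all windows, 0.0731% held such a pair up to 13 bases apart. The letters before the *Ccng1* site (agacctgccc) and after the later *Cdkn1a* site (tgacatgttc) resemble a half-site but depart from the consensus. Pairs with such an inexact partner were not searched, so the pair given need not be the element that p53 binds. Both *Aen* windows held the same site. A match is a description of the letters and not of binding, and the called members *Aen* and *Sesn1* had a half-site, as had *Trp53*, *Mdm2*, *Cdkn1a* and *Ccng1*, which were not called.

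Among the members that halt the cell cycle, *Cdkn1a* (ENSMUSG00000023067, chr17:29090976-29100727, plus strand) encodes p21, the inhibitor of cyclin-dependent kinases through which p53 stops cells before S phase. It was measured at 182, 126 and 221 CPM in scrambled ASO replicates 1, 2 and 3 and at 265, 239 and 223 CPM in those labelled *Pgam* ASO. Every *Pgam* ASO library lay above every scrambled one, but the highest scrambled library, replicate 3, reached nearly the level of the lowest *Pgam* ASO library, also a replicate 3. The log2 fold change was 0.46 (SE 0.18, edgeR adjusted p = 0.105), which did not pass. It passed with DESeq2 (adjusted p = 0.0403), when low counts were left unfiltered (edgeR adjusted p = 0.000162) and without replicate 3 labelled scrambled ASO (0.65, edgeR adjusted p = 0.0181). Without replicate 2 of that label the log2 fold change was 0.26 (edgeR adjusted p = 0.146). Across the 7 other tools, scalings, filters and the block, the log2 value ran from 0.42 to 0.49 and the adjusted p from 0.000162 to 0.115. *Cdkn1a* shared 9.78% of its 31-base stretches with transcripts of other genes, mainly the unverified opposite-strand gene *AC167363.2*, which overlaps it and had 49 to 78 counts per library against 2341 to 4269.

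*Ccng1* (ENSMUSG00000020326, chr11:40748552-40755311, minus strand) encodes cyclin G1, which acts back on p53 with a phosphatase and MDM2. It had 261, 260 and 268 CPM in the scrambled libraries and 276, 291 and 270 CPM in those labelled *Pgam* ASO. The groups did not overlap, yet the gap between the nearest libraries was smaller than the spread within either group. The log2 fold change was 0.08 (SE 0.08, edgeR adjusted p = 0.461). *Zmat3* (ENSMUSG00000027663, chr3:32334792-32366014, minus strand), which encodes an RNA-binding protein of the p53 tumour suppressor programme, ran from 56.4 to 64.3 CPM in one group and from 60.5 to 71.0 CPM in the other, with overlap (log2 fold change 0.11, SE 0.09, edgeR adjusted p = 0.426). *Phlda3* (ENSMUSG00000041801, chr1:135766119-135769136, plus strand), which restrains AKT by competing for its membrane lipid, ran from 21.4 to 25.7 CPM and from 26.3 to 28.4 CPM. All 3 libraries labelled *Pgam* ASO were above the scrambled ones, with a log2 fold change of 0.20 (SE 0.11, edgeR adjusted p = 0.229) that did not pass.

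Of the members tied to cell death, *Aen* rose and *Trp53inp1* fell. *Aen* (ENSMUSG00000030609, chr7:78895854-78911209, plus strand) encodes an exonuclease that takes part in apoptosis downstream of p53. It was measured at 44.5, 37.8 and 48.1 CPM in scrambled ASO replicates 1, 2 and 3 and at 78.6, 66.1 and 63.5 CPM in those labelled *Pgam* ASO. Every *Pgam* ASO library lay above every scrambled one, and the gap between the nearest of them was at least as wide as the range within either group. Its level was 1.60-fold higher, with a log2 fold change of 0.68 (SE 0.12, edgeR adjusted p = 0.00749), and it was called under each of the 7 other settings and with any 1 library left out (adjusted p from 0.00465 to 0.0413 for the latter).

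*Trp53inp1* (ENSMUSG00000028211, chr4:11156431-11174379, plus strand) encodes a stress protein that acts in p53-dependent death and in autophagy. It was measured at 280, 371 and 208 CPM in scrambled ASO replicates 1, 2 and 3 and at 45.8, 78.1 and 113 CPM in those labelled *Pgam* ASO. The groups were well apart, with replicate 2 highest among the scrambled libraries and replicate 3 highest among the others. Its level was 3.62-fold lower (log2 fold change -1.86, SE 0.38, edgeR adjusted p = 0.0292). The call was lost with no filter on low counts (adjusted p = 0.0931) and without replicate 1 or 2 labelled scrambled ASO or replicate 2 labelled *Pgam* ASO (adjusted p = 0.0835, 0.123 and 0.102), while the log2 value ran from -2.20 to -1.58 with 1 library left out. *Eda2r* (ENSMUSG00000034457, chrX:97333840-97377216, minus strand), which encodes a death receptor of the TNF receptor family, had 5, 0 and 3 counts in the scrambled libraries and 5, 10 and 11 in those labelled *Pgam* ASO. The low-count filter of the main test left it out. With no filter it did not pass (edgeR adjusted p = 0.179), and no fold is given at these counts.

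*Sesn1* (ENSMUSG00000038332, chr10:41809935-41908424, plus strand) encodes sestrin 1, a stress protein that dampens mTORC1 signalling when leucine is short. It was measured at 84.3, 131 and 63.0 CPM in scrambled ASO replicates 1, 2 and 3 and at 23.4, 30.3 and 39.7 CPM in those labelled *Pgam* ASO. The groups did not overlap, and replicate 3 of each label lay nearest to the other group. Its level was 2.98-fold lower (log2 fold change -1.58, SE 0.31, edgeR adjusted p = 0.0214). The call was lost with no filter on low counts (adjusted p = 0.0913) and without replicate 1 labelled scrambled ASO or replicate 1 or 2 labelled *Pgam* ASO (adjusted p = 0.0616, 0.067 and 0.0887). The other sestrins did not follow 1 direction. *Sesn2*, a p53 target that is also induced by amino acid shortage, rose from 28.5, 32.0 and 31.7 CPM to 60.4, 48.7 and 47.7 CPM (log2 fold change 0.77, SE 0.12, edgeR adjusted p = 0.00376). *Sesn3*, a FOXO target, fell from 313, 429 and 234 CPM to 110, 134 and 167 CPM (log2 fold change -1.25, SE 0.24, edgeR adjusted p = 0.018). It was named after its values were seen. Per kilobase of exon, *Sesn2* stood at 8.19 to 9.20 CPM in the scrambled libraries, below the 15.8 to 32.9 CPM of *Sesn1*, and at 13.7 to 17.4 CPM in those labelled *Pgam* ASO, above the 5.88 to 9.97 CPM of *Sesn1*. The order of the 2 sestrins was thus opposite in the 2 groups, without overlap in either.

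**Figure D2:**
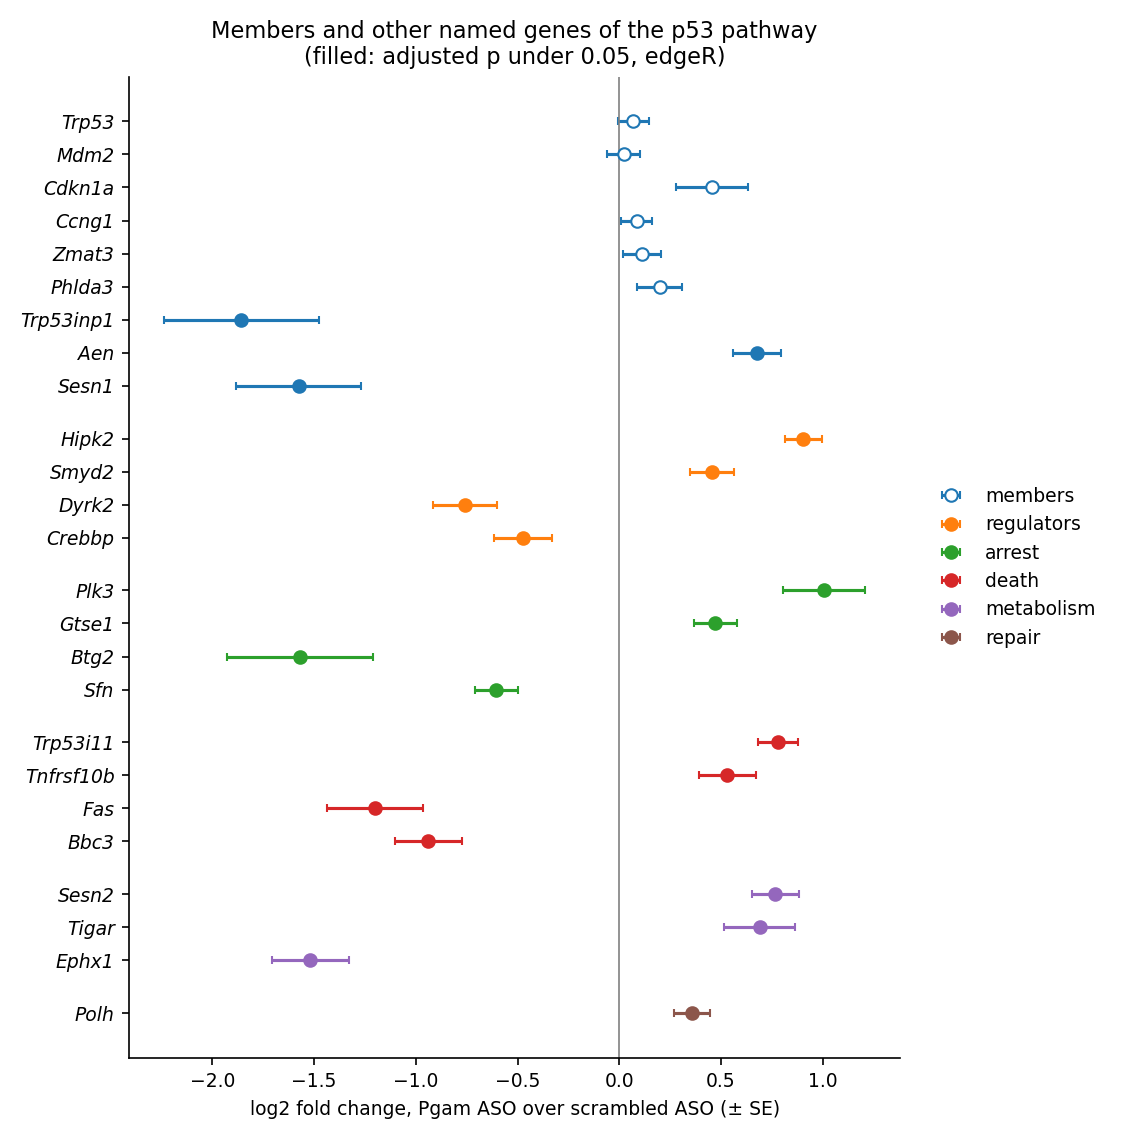
Log2 fold changes (*Pgam* ASO over scrambled ASO, horizontal axis, with bars of 1 SE) of the 9 tested members and of the genes named from 5 lists of regulators and other targets of p53; filled points passed an adjusted p of 0.05 in edgeR. Members run from -1.86 (*Trp53inp1*) to 0.68 (*Aen*), with *Trp53* at 0.07 and *Mdm2* at 0.02.

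Per kilobase of exon, as annotated and without regard to which isoforms were used, the mean levels in the scrambled libraries were 74.9 CPM for *Ccng1*, 49.7 for *Cdkn1a*, 44.2 for *Trp53inp1*, 42.6 for *Trp53*, 23.3 for *Sesn1*, 23.1 for *Mdm2*, 15.4 for *Phlda3*, 7.49 for *Aen*, 5.28 for *Zmat3* and 0.0264 for *Eda2r*. *Cdkn1a*, *Trp53inp1* and *Trp53* overlapped one another in their library values, as did *Sesn1* with *Trp53inp1*, *Mdm2* and *Phlda3*, so their order is not settled. In the libraries labelled *Pgam* ASO the highest means were those of *Ccng1* (79.4 CPM per kilobase), *Cdkn1a* (68.2), *Trp53* (44.7), *Mdm2* (23.4) and *Phlda3* (17.6). *Trp53inp1* stood at 12.2, with library values that overlapped those of *Phlda3* and of *Aen* at 12.0, and *Sesn1* stood at 7.82, overlapping *Zmat3* at 5.71. *Trp53inp1* thus went from among the most abundant of the 10 transcripts to the level of *Aen*. The members also differed in how far replicates spread. The coefficient of variation within the scrambled group was 37.5% for *Sesn1*, 28.6% for *Trp53inp1* and 27.0% for *Cdkn1a*, against 1.73% for *Ccng1* and 2.22% for *Trp53*. In the *Pgam* ASO group it was 26.3%, 42.6% and 8.78% for the first 3 genes and 3.97% and 2.17% for the last 2.

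Genes of the pathway were then read from 9 lists of 124 distinct genes, 118 of them tested. The aim was to see whether regulators of p53, its further targets and genes that p53 represses moved with the members. The members *Trp53inp1* and *Sesn1* also stand on the list of FOXO targets, so these totals include them. Of 24 tested regulators of p53, 3 rose and 2 fell, 20.8% against 17.2% of all tested genes, with a median log2 fold change of -0.07. *Hipk2*, a kinase that phosphorylates p53 in its lethal response, rose from 48.8 to 53.1 CPM in the scrambled libraries to 87.1 to 102 CPM (log2 fold change 0.90, SE 0.09, edgeR adjusted p = 0.000669). *Smyd2*, a methyltransferase that restrains p53, rose with it (0.45, SE 0.11, edgeR adjusted p = 0.0226). *Dyrk2*, another p53 kinase (-0.76, SE 0.16, edgeR adjusted p = 0.0141), and *Crebbp*, an acetyltransferase and coactivator (-0.47, SE 0.14, edgeR adjusted p = 0.046), fell, but *Crebbp* did not pass with limma-voom (adjusted p = 0.0572), library size alone (0.0506) or the block (0.0973). With the block *Smyd2* did not pass either (edgeR adjusted p = 0.0574). With a library left out, *Hipk2* passed in 6 of 6 fits, *Dyrk2* in 3, and *Smyd2* and *Crebbp* in 2 each. The remaining call was *Kmt5a*, which methylates p53 (0.40, edgeR adjusted p = 0.0129). *Cdkn2a*, whose ARF product blocks MDM2, and *Trp63*, a p53 relative, were too low to be tested, with at most 0.770 and 0.0621 CPM. The number of regulators called was 1, 3, 2 and 1 without replicate 1 or 2 labelled scrambled ASO and without replicate 1 or 2 labelled *Pgam* ASO. In the same fits 4.02%, 8.22%, 5.6% and 2.51% of all tested genes were called.

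The other direct targets of p53, 51 genes in 5 lists of which 47 were tested, were called in both directions too, 8 higher and 7 lower, 31.9% in all against 17.2% of all tested genes, with a median log2 fold change of -0.016. Of 10 tested genes of cell cycle arrest, 2 rose and 2 fell. *Plk3*, a stress kinase, went from 30.7, 23.3 and 31.7 CPM to 76.8, 48.6 and 46.7 CPM (log2 fold change 1.01, SE 0.20, edgeR adjusted p = 0.0151), and *Gtse1*, which draws p53 out of the nucleus in G2, also rose (0.47, SE 0.11, edgeR adjusted p = 0.0191). *Btg2*, an antiproliferative gene of resting lymphocytes, went from 71.1, 118 and 56.3 CPM to 18.8, 25.7 and 38.0 CPM (-1.57, SE 0.36, edgeR adjusted p = 0.0349), and *Sfn*, which encodes 14-3-3 sigma, fell as well (-0.60, SE 0.11, edgeR adjusted p = 0.00779). The 2 groups did not overlap for any of these 4 genes, but *Btg2* did not pass with no filter on low counts (edgeR adjusted p = 0.133) or with the block (0.0583). With a library left out, *Sfn* passed in 5 of 6 fits, *Plk3* in 4, *Gtse1* in 3 and *Btg2* in 2.

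Of 14 tested death genes, 3 rose and 3 fell, 21.4% each. Of all tested genes 8.03% were called higher and 9.15% lower, shares that also stand beside the other lists of this paragraph. *Fas*, the death receptor of activated lymphocytes, went from 33.1, 38.7 and 28.1 CPM to 9.44, 14.3 and 19.6 CPM (log2 fold change -1.20, SE 0.24, edgeR adjusted p = 0.0141). *Bbc3*, which encodes the BH3-only protein PUMA, went from 28.5, 35.4 and 25.3 CPM to 15.2, 12.8 and 18.6 CPM (-0.94, SE 0.17, edgeR adjusted p = 0.00813). Both lay lower in every library labelled *Pgam* ASO, although they stand on the same list as the 2 genes that rose most, *Trp53i11* (0.78, SE 0.10, edgeR adjusted p = 0.00155) and *Tnfrsf10b*, a TRAIL receptor (0.53, SE 0.14, edgeR adjusted p = 0.0307). Of 13 tested genes of metabolism and oxidant control, 2 rose, *Sesn2* and *Tigar*, a phosphatase that slows glycolysis (0.69, SE 0.18, edgeR adjusted p = 0.0277), and 1 fell, *Ephx1*, an epoxide hydrolase (-1.52, SE 0.19, edgeR adjusted p = 0.00179). Of 6 repair genes 1 was called, *Polh*, a translesion polymerase, which rose (0.36, SE 0.09, edgeR adjusted p = 0.0262), and of 4 feedback genes 1 fell. The remaining calls of the death list were *Casp6*, a caspase (0.36, edgeR adjusted p = 0.0442), and *Pmaip1*, which encodes NOXA (-0.79, edgeR adjusted p = 0.00421), and *Cgref1*, *Dram1*, *Pltp* and *Sco2* of the 5 lists were too low to be tested. With the block neither *Tnfrsf10b* (edgeR adjusted p = 0.0597) nor *Polh* (0.0574) passed. *Casp6* did not pass with the block or under library size alone. With a library left out, *Trp53i11*, *Sesn2* and *Ephx1* passed in 6 of 6 fits, *Bbc3* in 5, *Fas* in 3, and *Tnfrsf10b*, *Tigar* and *Polh* in 2 each. Over the 5 lists the number called was 15, but 6, 9, 9 and 5 without replicate 1 or 2 labelled scrambled ASO and without replicate 1 or 2 labelled *Pgam* ASO. The share of all tested genes called fell as well, from 17.2% to 4.02%, 8.22%, 5.6% and 2.51%.

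p53 represses many cell cycle genes through p21 and the DREAM complex, and 25 of these were read. Of the 25, 13 rose by edgeR, 52.0% beside 8.03% of all tested genes, and 0 fell, beside 9.15%, with a median log2 fold change of 0.31. At an unadjusted p under 0.05 the counts were 20 and 0, where 2564 of all 14936 genes were higher and 2650 lower. DESeq2 and limma-voom called 14 and 13 of the list higher, beside 1554 of 14067 and 1171 of 14936 genes of the table, and 0 lower. With the replicate block only 3 of the list were called higher, beside 3.21% of all tested genes, and 0 lower. *Cdc25a*, a phosphatase that frees cyclin-dependent kinases, went from 84.3, 64.5 and 87.3 CPM to 132, 121 and 107 CPM (log2 fold change 0.61, SE 0.12, edgeR adjusted p = 0.0138). *Rad54l*, a recombination factor, also rose (0.56, SE 0.10, edgeR adjusted p = 0.00786). Without replicate 1 or 2 labelled scrambled ASO and without replicate 1 or 2 labelled *Pgam* ASO, 2, 4, 2 and 0 of the 25 were called, and the number over all tested genes fell as well, from 2565 to 620, 1256, 871 and 391. Of the 12 cyclins, kinases and inhibitors that act with or beside p21, 4 rose and 1 fell, 33.3% and 8.33% beside 8.03% and 9.15% of all tested genes, with a median of 0.32. Under library size alone the counts were 3 and 0, and with no filter on low counts 6 and 0. With the replicate block they were 2 and 1, beside 3.21% and 5.05% of all tested genes. *Cdk6*, a G1 kinase, went from 133, 105 and 138 CPM to 212, 229 and 210 CPM (0.79, SE 0.11, edgeR adjusted p = 0.00265), and *Ccnd3*, its cyclin partner in lymphocytes, had 387, 316 and 480 against 539, 505 and 559 CPM (0.44, SE 0.13, edgeR adjusted p = 0.0488). The other 2 that rose were *Ccna2* and *Cdk4*, at log2 fold changes of 0.34 and 0.33, and neither passed with the block. *Cdkn1b*, which encodes p27, went from 156, 230 and 155 CPM to 59.1, 84.9 and 117 CPM (-1.05, SE 0.27, edgeR adjusted p = 0.0429). It did not pass under library size alone (edgeR adjusted p = 0.0527) or with no filter (0.172) and passed in 1 of 6 fits with a library left out, as did *Ccnd3*, which passed in 5 of the 7 other settings. The transcript of p27 was thus called lower by the main test, while that of p21 was not called (*Cdkn1a*, log2 fold change 0.46, edgeR adjusted p = 0.105). They were not tested against each other. Of the 12 genes 1, 1, 1, 1 and 3 were called without replicate 1 or 2 labelled scrambled ASO and without replicate 1, 2 or 3 labelled *Pgam* ASO. In the same fits 4.02%, 8.22%, 5.6%, 2.51% and 21.5% of all tested genes were called.

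**Figure D3:**
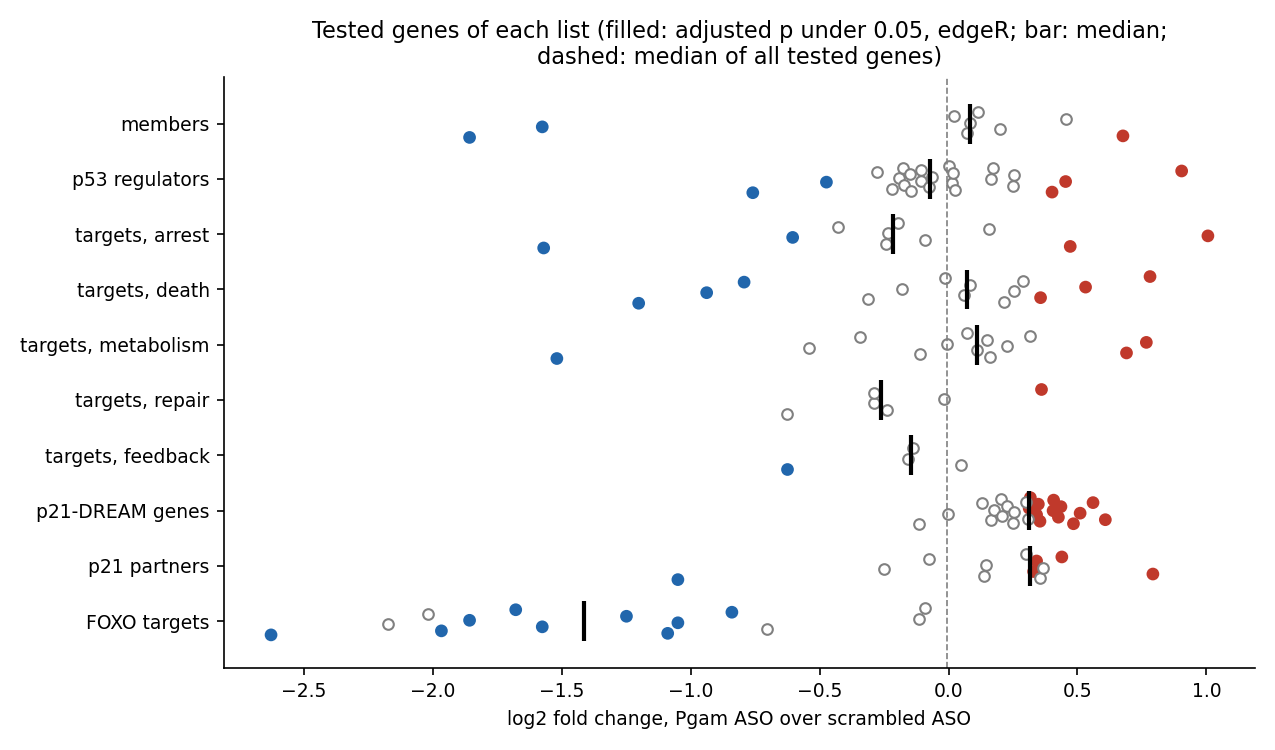
Log2 fold changes (*Pgam* ASO over scrambled ASO) of every tested gene of the members and of 9 lists, 1 point per gene, filled red where called higher and blue where called lower by edgeR, with a black bar at each list's median and a dashed line at that of all tested genes. The arrest, death and metabolism targets hold calls on both sides, the p21-DREAM list has 13 higher and 0 lower, and the FOXO list has 9 lower and 0 higher.

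The members that fell, *Trp53inp1* and *Sesn1*, also stand on the list of 14 FOXO targets of resting T cells. By edgeR 9 of the 14 fell, 64.3% beside 9.15% of all tested genes, and 0 rose, beside 8.03%, and all 14 had a negative log2 fold change under TMM, RLE and library size scaling alike, with a median of -1.41. At an unadjusted p under 0.05 the counts were 12 and 0, where 2650 of all 14936 genes were lower and 2564 higher. DESeq2 and limma-voom each called 11 lower, beside 11.8% and 9.05% of all genes, and 0 higher. Without the 2 members, 7 of 12 fell, 58.3%, and the median was -1.17. *Bcl6*, a transcriptional repressor, went from 14.4, 19.8 and 7.93 CPM to 2.24, 2.76 and 5.74 CPM (log2 fold change -1.97, SE 0.42, edgeR adjusted p = 0.022), and passed in 6 of the 7 other settings and in 2 of 6 fits with a library left out. For *Bcl6* replicate 2 was highest of the scrambled libraries and replicate 1 lowest of those labelled *Pgam* ASO, as for *Trp53inp1* and *Sesn1*. The list's count was 1, 4, 3 and 0 without replicate 1 or 2 labelled scrambled ASO and without replicate 1 or 2 labelled *Pgam* ASO, where 2.58%, 4.98%, 3.50% and 1.48% of all genes were called lower. It was 4 with no filter on low counts, beside 6.66%, and 5 with the replicate block, beside 5.05%.

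After its values were seen, the rank of *Trp53inp1* over the 6 libraries was used to ask which genes placed the libraries in the same order. *Sesn1* was the one other member to do so. Only a gene with every *Pgam* ASO library below every scrambled one can match this order, so the shares are of such genes. Of 2964 among all tested genes 778 matched, 26.2%. Of the FOXO targets that are not members 10 of 12 lay below in this way, and 9 of the 10 matched. Of the 47 other direct p53 targets 12 lay below, and 4 of the 12 matched, 33.3%, among them *Btg2*, *Fas* and *Ephx1*. This is a description of 6 libraries, in which the share of a list carries no test, and whether FOXO activity differed between the cultures was not tested.

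**Figure D4:**
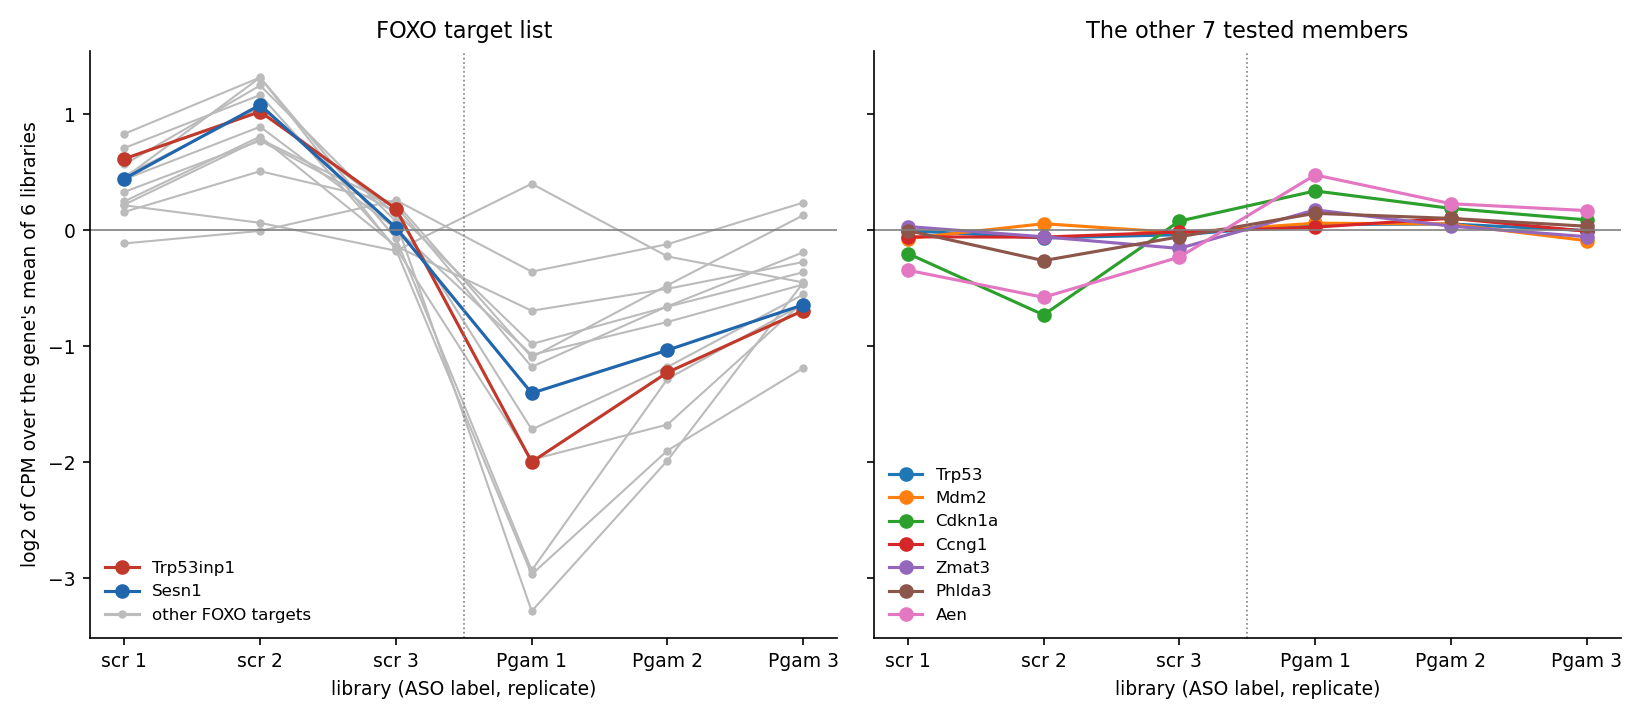
Level of each gene in each library as log2 of its CPM over its mean of the 6 libraries, for the 14 FOXO targets (left, *Trp53inp1* and *Sesn1* in colour) and for the other 7 tested members (right); lines join the values of 1 gene, and replicates have no order. *Trp53inp1* and *Sesn1* run with most of the FOXO list, highest in replicate 2 labelled scrambled ASO and lowest in replicate 1 labelled *Pgam* ASO, whereas *Trp53*, *Mdm2*, *Ccng1* and *Zmat3* stay close to 0.

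Since the cells were unsorted, markers of the cell types that a culture could hold were read in every library. In bulk RNA, fewer cells of a type and less RNA per cell cannot be told apart. All 12 CD4 T cell markers were tested, 3 fell (*Cd28*, *Cd5* and *Trac*), and their summed level was 4230, 4560 and 3940 CPM in the scrambled libraries and 3540, 3590 and 3720 CPM in those labelled *Pgam* ASO, with *Cd4* the most abundant. The 8 B cell markers summed to 494, 600 and 394 CPM and to 193, 216 and 252 CPM, and 3 fell (*Ighm*, *Ighd* and *Cd74*). Over the 6 libraries *Ighm* was the most abundant, at 320, 447 and 216 CPM and at 75.6, 111 and 142 CPM (log2 fold change -1.58, SE 0.33, edgeR adjusted p = 0.0282). In replicate 1 labelled *Pgam* ASO, however, *Cd74* stood higher, at 106 CPM. *Ighm* thus moved in the direction of *Trp53inp1* and *Sesn1* and ranked the libraries the same way. *Foxp3* also ranked the libraries in this order. Of the 12 CD4 T cell markers, 8 had every *Pgam* ASO library below every scrambled one. Of these 8, 5 matched the order, 62.5%, *Cd4* and *Trac* among them, where 26.2% of all such tested genes matched. Without *Ighm* the B cell sum was 174, 153 and 178 CPM and 118, 105 and 109 CPM. The part of other cells in the fall of these members was not tested.

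The remaining marker lists were low. The 8 markers of CD8 T and NK cells summed to 87.6, 74.6 and 96.5 CPM and to 65.2, 54.7 and 54.2 CPM, led by *Eomes*, with *Cd8a* called higher, *Eomes* and *Klrd1* called lower and *Klrb1c* at 0 in all 6 libraries. The 10 myeloid markers summed to 9.60 to 11.5 CPM in the scrambled libraries and to 9.37 to 10.6 CPM in those labelled *Pgam* ASO, led by *Cd68*, with 0 of 5 tested called by edgeR, DESeq2 or limma-voom and 1 at an unadjusted p under 0.05. The 8 markers of mast cells and basophils summed to 6.98 to 8.18 CPM and to 6.61 to 7.64 CPM, with *Kit* the most abundant over the 6 libraries, *Gata2* called higher, *Kit* called lower and *Mcpt4* at 0. Without *Kit* their sum was 1.69, 2.38 and 2.17 CPM and 6.71, 5.13 and 3.96 CPM, so the groups then did not overlap. The 7 erythroid markers summed to 2.29 to 4.16 CPM and to 1.61 to 2.90 CPM, led by *Alas2*, with *Hba-a2* at 0 and 0 of 3 tested called by edgeR, DESeq2 or limma-voom (1 at an unadjusted p under 0.05). A count of 0 in these libraries allows up to the 3 counts named above.

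**Figure D5:**
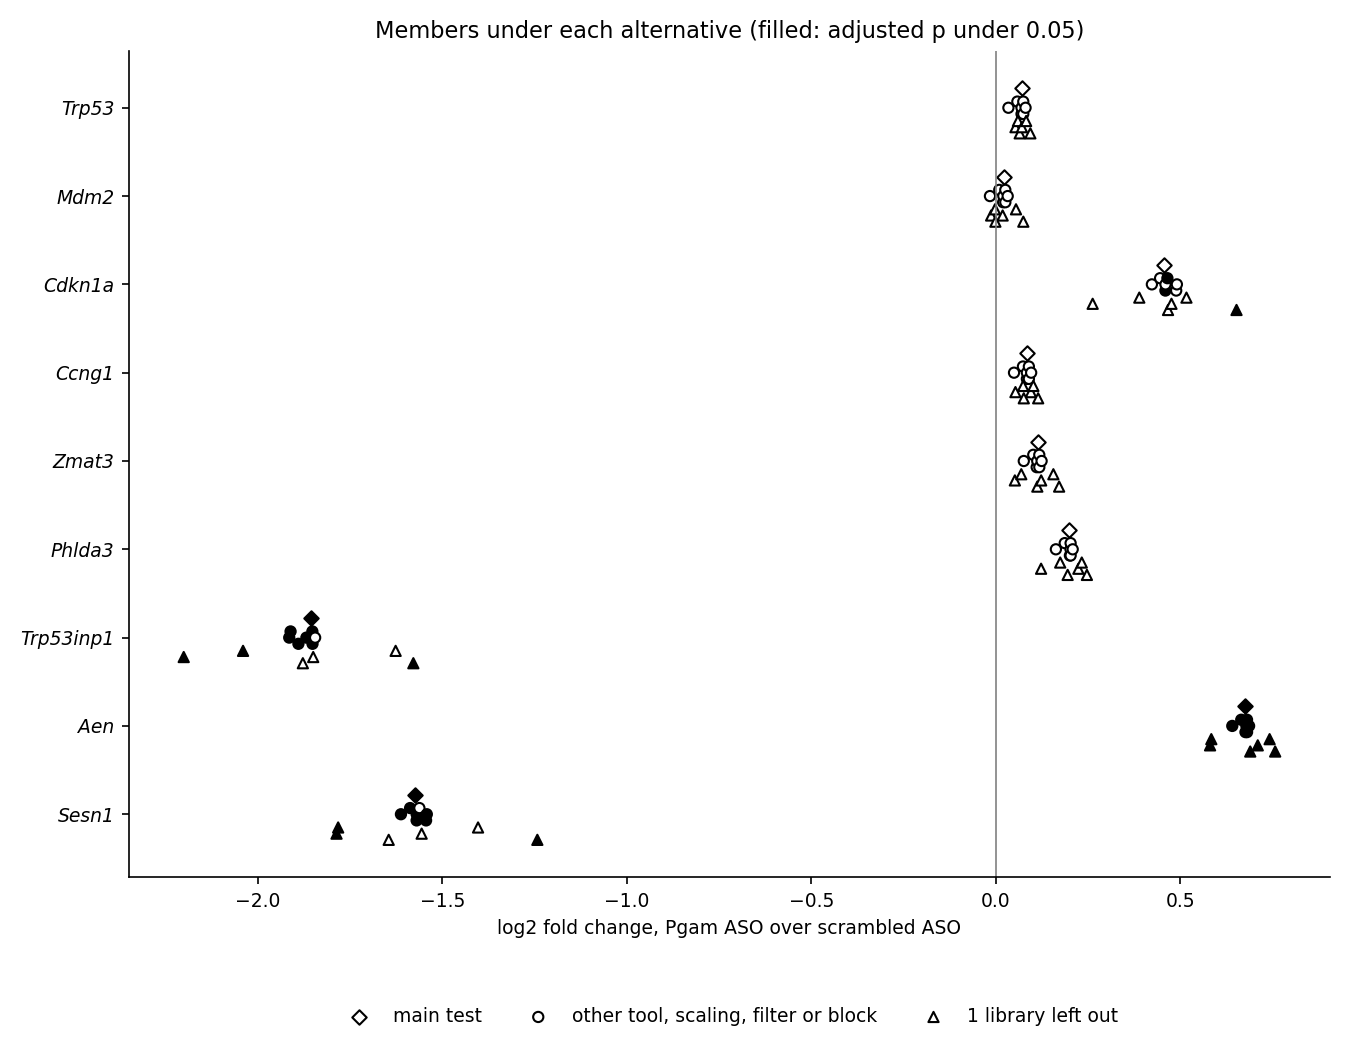
Log2 fold changes of the 9 tested members under the main edgeR test (diamonds), under 7 other tools, scalings, filters and the replicate block (circles) and with each of the 6 libraries left out (triangles), filled where the adjusted p was under 0.05. *Aen* is filled throughout between 0.58 and 0.76, *Trp53inp1* and *Sesn1* stay negative but are not filled throughout, and *Mdm2* lies on both sides of 0.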

How the data were processed

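Polyadenylated RNA of 6 cultures was sequenced. Per the labels and the paper's methods, the authors quantified reads with Kallisto, and the submitters' processing notes name GRCm38; the Kallisto version and the transcript annotation are not given in the sources used here. The deposited values are estimated counts per Ensembl gene, written as whole numbers and not normalized. Symbols came from a gene name table that held 52073 of the 56748 identifiers, positions and exon lengths from GENCODE M21, and promoter sequences from RefSeq (GRCm38.p6).

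The analysis ran under R 4.3.3 and used edgeR 4.0.16. filterByExpr left 14936 genes, TMM set the scaling, and a robust two-sided quasi-likelihood test compared the groups. p was adjusted over every tested gene (Benjamini-Hochberg), and genes under 0.05 were called. Each p weighs the group difference against the spread between the 3 libraries of each group, moderated across genes. The procedure was tested on simulated counts in which every gene had the same dispersion. That setting does not cover genes with a wider spread, such as *Trp53inp1* and *Sesn1*. Library pairs differed by more than sampling noise, so none was counted as a duplicate. No member shared 10% of its 31-base stretches with any 1 gene, so the alternative planned for members, summing with such genes, applied to none of them. It was added for *Pgam1* after the data were seen. Since Kallisto was not stated to use strand, overlapping genes on opposite strands cannot be told apart.

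The alternatives were DESeq2 1.42.0, limma-voom (limma 3.58.1), RLE scaling, library size alone, no filter on low counts, at least 10 counts in every library, a block for replicate number, leaving out each library in turn, and an adjusted p under 0.01. Named were all members, *Pgam1*, *Pgam2*, *Foxp3*, the 2 called genes with the largest log2 fold change in each direction of each pathway list (or, for a list without calls, its most abundant gene), and the most abundant gene and any marker at 0 of each cell type list. Where a list had few calls, the others were named too, as were genes too low to be tested, once their values were seen. Some genes that these rules select are not reported here. *Sesn3*, *Cdkn2a* and *Trp63*, and the genes given as ranking the libraries as *Trp53inp1* did, were named after their values were seen. The members and lists were chosen with earlier results of these data known.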

Additional observations from a re-analysis of the deposited data

How the results depend on the processing

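The number of genes called over the whole table was 2565 with edgeR, 453 at an adjusted p under 0.01, and 391 to 3484 with 1 library left out (620 and 1256 without replicates 1 and 2 labelled scrambled ASO, 871 and 391 without replicates 1 and 2 labelled *Pgam* ASO). For the members it was 3, and 1 to 4 with 1 library left out. For the 9 pathway lists, which include the members *Trp53inp1* and *Sesn1*, it was 45, and 7 to 56 with 1 library left out. These fits held 2 libraries in one group, and the cause of the loss was not tested further. For *Pgam1* and *Pgam2* it was 0, but 1 (*Pgam2*) with no filter on low counts, and 0 to 1 with 1 library left out. *Mdm2* changed sign, with log2 fold changes of -0.016 under library size alone, and from -0.013 to 0.075 with 1 library left out (-0.013 without replicate 1 labelled scrambled ASO, -0.0022 and -0.0012 without replicates 1 and 2 labelled *Pgam* ASO). Over 36 tested genes (members, *Pgam1*, *Pgam2*, *Foxp3* and those that the rule for pathway lists selects), 469 values under alternatives were computed, of which 378 kept their direction and side of the threshold, 82 no longer passed, 5 passed where the main test did not, and 4, all of *Mdm2*, changed sign. Summed with the genes that share its sequence, an alternative chosen after seeing the data, *Pgam1* did not pass (log2 fold change 0.18, edgeR adjusted p = 0.331).

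Equal replicate numbers are not stated to mark a shared mouse. Deviations from the group means correlated across genes at 0.0534, -0.034 and -0.237 for libraries of equal number and from -0.254 to 0.28 for the others. With 3 libraries a group these deviations are tied to each other, so the values do not show pairing by number and cannot exclude it. With the replicate number as a block, 1235 genes were called over the whole table, 24 in the pathway lists, 3 of the DREAM list and 3 of the members.

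The low-count filter left *Eda2r* out of the main test, and with 3 libraries a group a p over the threshold does not show that values were equal. Only transcripts were measured, whereas p53 is set mostly through its protein, and neither protein nor DNA binding was analysed here. The cells were unsorted and taken at a single time, so changes within a cell and in the mix of cells cannot be told apart.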
